A study of Mus musculus with 4 samples.

Results

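The genes described here are the Slc25 mitochondrial carriers of mouse white adipose tissue, compared between a high-fat diet (HFD) and a low-fat diet (LFD). Members were all probes of the array, control spots aside, whose gene name in the scanner output was Slc25a followed by a number. There were 76 such probes for 46 genes, out of 41174 probes and 27617 named genes on the array. Of these, 37 genes (56 probes) were bright enough to be tested and 9 were not.

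Slc25 proteins carry small molecules across the inner mitochondrial membrane, which is otherwise closed to most metabolites. They are built from repeated modules, and each module carries a signature of proline, an acidic residue and a basic residue. In fat cells the family links the mitochondrion to lipid synthesis through citrate export, to the cytosol's redox state through the malate-aspartate shuttle, to fatty acid oxidation through acylcarnitine entry and to ATP supply through ADP/ATP exchange. Most members have a known substrate, and a few have none that is settled.

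Total RNA came from white adipose tissue of female C57BL/6 mice, with no depot named. Mice entered the study at 8 weeks of age and ate either the standard LFD (CE2, CLEA Japan) or the HFD (High fat diet 32, CLEA Japan) for 18 weeks. Tissue of 3 mice was mixed per sample, and each diet had 2 samples, each on its own 1-colour array of the same slide. The labels do not say whether the replicates are pools of different mice. If they are not, the p-values reflect technical spread alone. The labels name no transgene or deletion.

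The arrays held 21322 to 27951 probes well above background, and none of the probe spots was saturated. HFD replicate 2 had the fewest, and the highest mean net signal of the negative control spots (110, against 63.5 to 97.0 on the others). Across tested probes the log2 signals correlated at r = 0.989 between the LFD arrays, r = 0.992 between the HFD arrays and r = 0.965 to 0.971 between diets. With 2 arrays per diet, the number of arrays limits the precision of every value below. The 8 adipocyte markers were above background on all arrays. Their summed signal was 1035 and 1147 times the array's 75th percentile on LFD and 1069 and 1139 on HFD. Such a sum, here and below, is weighted to the brightest probes of a list and can hide changes of single markers.

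The promoters of the 4 carriers that passed the test are shown first, because these genes differed between the diets and because Slc25a29 and Slc25a47 are neighbours. Each sequence is the RefSeq window of 300 bases around the gene start (build GRCm38.p6), read 5′ to 3′ on the gene's strand, with GC boxes (GGGCGG) and E-boxes (CACGTG) on either strand in capitals. Slc25a13 lies at chr6:6217124-6217423 on the minus strand, Slc25a24 at chr3:109122899-109123198 on the plus strand, Slc25a29 at chr12:108835827-108836126 on the minus strand and Slc25a47 at chr12:108850879-108851178 on the plus strand.
Slc25a13: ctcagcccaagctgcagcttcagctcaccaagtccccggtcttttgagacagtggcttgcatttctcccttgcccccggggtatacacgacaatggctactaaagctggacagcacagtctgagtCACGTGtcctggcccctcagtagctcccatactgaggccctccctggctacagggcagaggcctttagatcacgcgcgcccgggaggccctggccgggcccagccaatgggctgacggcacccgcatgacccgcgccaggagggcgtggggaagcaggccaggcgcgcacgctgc
Slc25a24: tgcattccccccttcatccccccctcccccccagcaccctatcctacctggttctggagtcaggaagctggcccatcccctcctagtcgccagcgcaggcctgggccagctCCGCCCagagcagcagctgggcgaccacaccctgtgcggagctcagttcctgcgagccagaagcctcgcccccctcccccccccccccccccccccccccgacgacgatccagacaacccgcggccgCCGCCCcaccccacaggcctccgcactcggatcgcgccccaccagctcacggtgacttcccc
Slc25a29: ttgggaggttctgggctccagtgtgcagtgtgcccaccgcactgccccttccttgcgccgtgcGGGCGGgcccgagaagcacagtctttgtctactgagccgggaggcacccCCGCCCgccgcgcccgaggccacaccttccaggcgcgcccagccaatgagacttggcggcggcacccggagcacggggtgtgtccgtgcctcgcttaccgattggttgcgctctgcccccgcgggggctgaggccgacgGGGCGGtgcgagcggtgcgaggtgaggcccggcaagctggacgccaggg
Slc25a47: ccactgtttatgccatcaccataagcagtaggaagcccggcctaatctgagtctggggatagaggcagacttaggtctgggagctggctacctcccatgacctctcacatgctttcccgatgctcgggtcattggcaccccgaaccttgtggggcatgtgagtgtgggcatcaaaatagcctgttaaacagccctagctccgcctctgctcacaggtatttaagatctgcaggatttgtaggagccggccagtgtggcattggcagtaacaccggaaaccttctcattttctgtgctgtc
The Slc25a13 window held 1 E-box and no GC box. The Slc25a24 window held 2 GC boxes and the Slc25a29 window 3, while the Slc25a47 window held neither motif. RefSeq windows were found for 35 of the 46 genes, 44 windows in all. A GC box occurred in 81.8% of these windows and in 35.7% of all 32851 windows, and their median GC content was 59.3% against 52.7%. An E-box occurred in 18.2% of Slc25 windows against 7.15% of all, in Slc25a1, Slc25a13, Slc25a14, Slc25a15, Slc25a31, Slc25a33 and Slc25a36. The half-site AAGGTCA, bound by oestrogen-related receptors, was found for Slc25a34 (2.27% of windows against 4.72% of all). The site of NRF1, a regulator of nuclear genes for mitochondrial proteins, was in 0 windows against 2.27% of all, and TCACCCCAC or TCACGCCAC, forms of the sterol regulatory element, were in 0 against 0.67%. These searches covered both strands. A match, or none, describes the letters of the window only.

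The family signature could also be read in the probes themselves. A search for a proline codon (CCN), any codon, an aspartate or glutamate codon, any 2 codons and a lysine or arginine codon, in a frame without stop codons, found it in 3 of 76 Slc25 probes (3.95%) and in 254 of the 41098 other probes (0.618%). On the opposite strand it was found in 2 (2.63%) and 200 (0.487%). The probes for Slc25a26, the S-adenosylmethionine carrier, and Slc25a30, an uncoupling-protein-like carrier, are shown because they print the motif that defines the family, in capitals from the proline codon to the basic codon.
Slc25a26: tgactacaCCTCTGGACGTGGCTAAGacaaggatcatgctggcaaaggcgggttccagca
Slc25a30: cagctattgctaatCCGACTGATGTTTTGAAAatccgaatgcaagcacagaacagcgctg
On mm9, the build of the array's annotation, the Slc25a26 probe spans chr6:94548392-94549185 on the plus strand, and the Slc25a30 probe spans chr14:76169441-76170009 on the minus strand. The genomic spans are 794 and 569 bases, longer than the probes. The Slc25a26 probe was well above background on all 4 arrays (log2 signal 0.10 and -0.06 on LFD, -0.09 and 0.08 on HFD). The Slc25a30 probe was above background on none, although both other Slc25a30 probes were on all 4.

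After 18 weeks of diet, 2 carriers were higher in HFD, 2 were lower and 33 of the 37 tested did not pass the test. Slc25a13, an aspartate/glutamate carrier, was 2.81-fold higher and Slc25a24, a calcium-regulated ATP-Mg/phosphate carrier, 1.66-fold higher. Slc25a29, a carrier of basic amino acids, was 1.94-fold lower and Slc25a47, a carrier known from liver with no substrate assigned here, 1.78-fold lower. The test was limma's moderated test on log2 signal scaled to each array's 75th percentile, and p-values were adjusted by Benjamini-Hochberg across the 26072 probes tested, with 0.05 as the threshold. All levels below are log2 signals on that scale, a gene being represented by its brightest tested probe. Levels of different probes have no common scale, so that between genes only changes are compared.

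With the setting used here, the called shares were near the background of the array. Of the tested carriers 5.41% were higher and 5.41% lower, against 5.74% and 5.61% of all 17751 tested genes. In 8 carriers (21.6%) both HFD arrays lay above both LFD arrays, against 36.2% of all genes. In 19 carriers (51.4%) both HFD arrays lay below both LFD arrays, against 32.7% of all genes, and in 10 the diets overlapped. The median log2 change of the 37 carriers was -0.19, against 0.02 for all genes, with 27 below 0 and 10 above. Their changes ran from -1.31 to 1.49, and 18 lay within 0.25 of 0. At an unadjusted p under 0.05 there were 15 carriers (40.5%), against 34.9% of all genes. An adjusted p between 0.05 and 0.10 was found for 8 lower carriers (21.6%, against 6.72% of all genes) and 2 higher ones (5.41% against 6.99%). Slc25a48, which was not above background on HFD, is among the 15, the 8, the 19 and the 27. Slc25a23, not above background on HFD replicate 2, is among the 15, the 19 and the 27. With probes above background on all 4 arrays, 24 of 34 carriers were below 0. Their median was then -0.18, against 0.03 for all genes. Scaling to the median in place of the 75th percentile gave 2 higher and 6 lower carriers, and 849 higher and 1333 lower genes overall in place of 1019 and 995.

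**Figure D1:**
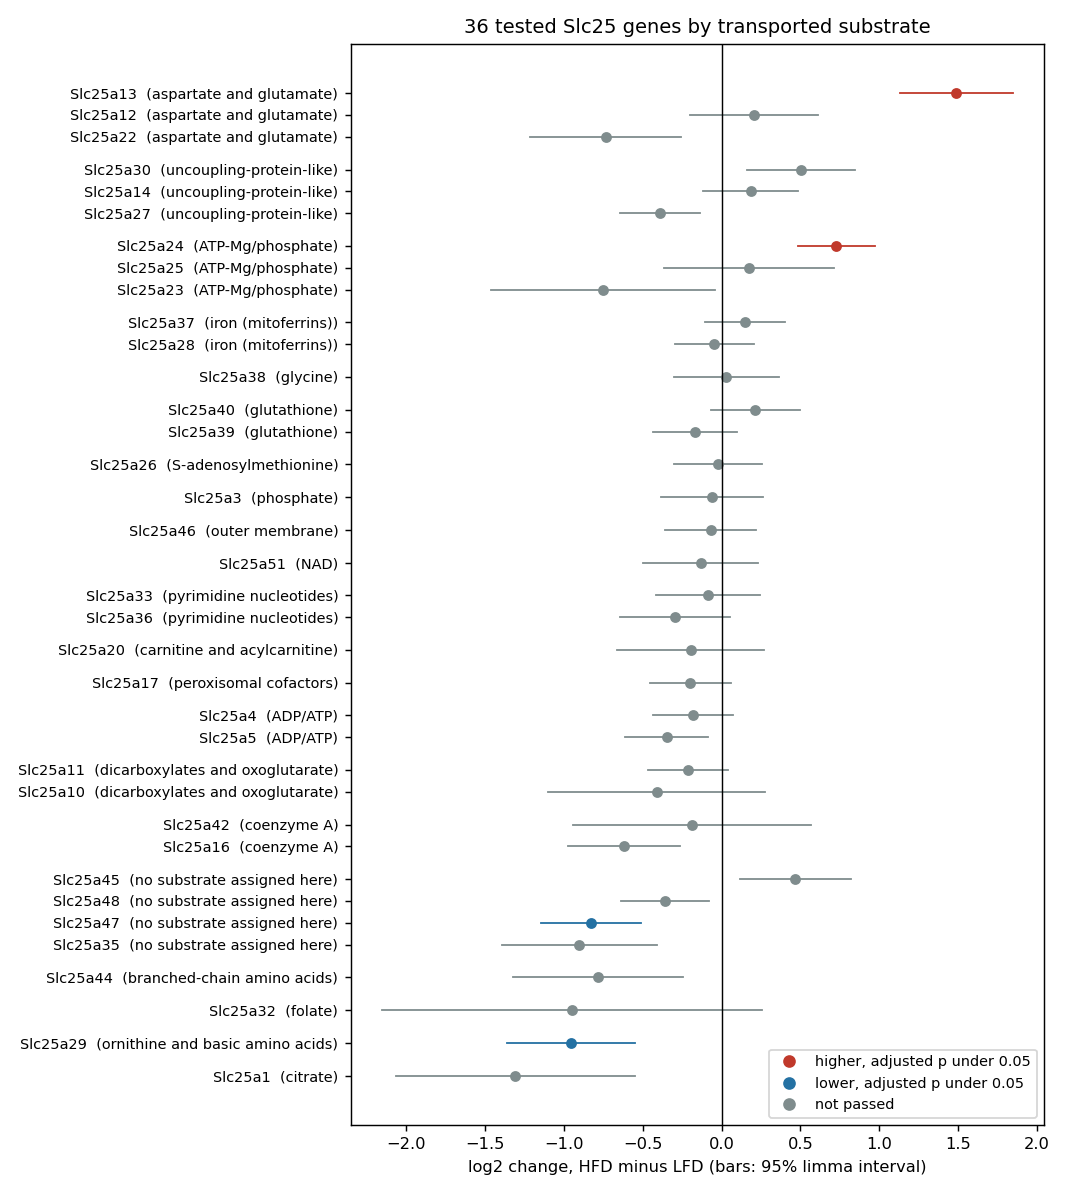
Log2 change (HFD minus LFD) of 36 of the 37 tested Slc25 genes, grouped by transported substrate, with limma's 95% interval as bars and called genes in colour. Slc25a13 (1.49) stands at one end and Slc25a1 (-1.31) at the other, where the interval is wide; the Slc25a48 point rests on HFD arrays that were not above background.

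**Figure D2:**
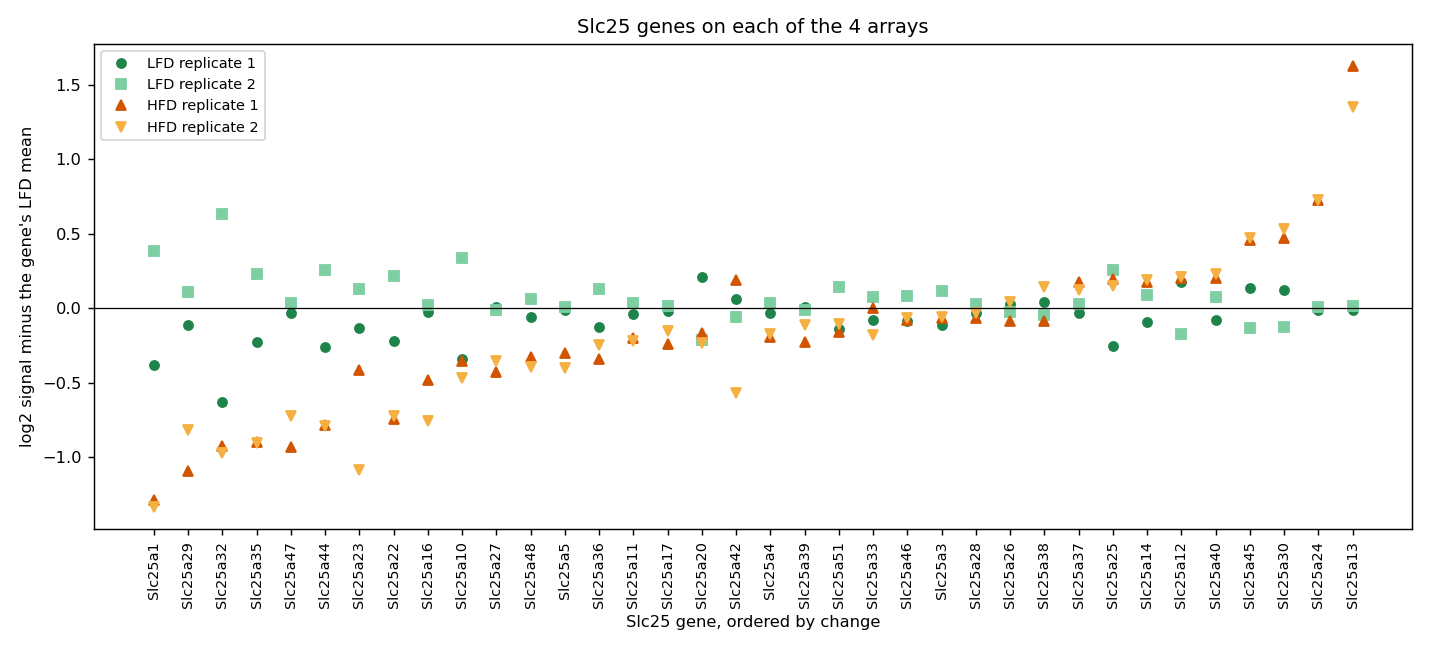
Log2 signal of 36 of the 37 genes on the 4 arrays, minus the gene's LFD mean, with genes ordered by change. The HFD arrays of Slc25a13 lie furthest above the LFD mean and those of Slc25a1 furthest below, and in several genes at the left the 2 LFD arrays are well apart.

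Markers of several cell types differed between the diets, and their part in the carriers' values was not tested. Of 8 macrophage markers 6 were higher in HFD (summed signal 178 and 161 on LFD, 259 and 272 on HFD). Lyz2, by far the brightest of the 8, weighs most in that sum and did not pass (0.42, adjusted p = 0.0818). The list's median change was 1.27. All 6 mesothelial markers were lower (26.6 and 28.4 against 10.5 and 8.14). Of 6 brown and beige fat markers 3 were lower (108 and 42.6 against 6.89 and 9.31), and LFD replicate 1 was the highest of the arrays. Bladder epithelium markers, the uroplakins, were lower for 3 of 4 (4.44 and 4.48 against 0.947 and 0.809). Of the called genes, Upk2, Upk3a and the brown fat marker Dio2 were well above background on only 3 arrays. With probes above background on all 4 arrays, 2 uroplakins were tested and 1 was lower. Of the brown fat markers 4 were then tested and 3 were lower. Of the 5 tested mammary epithelium markers Krt8 and Krt18 were lower. The others, Krt14, Csn3 and Wap, had changes of 0.26, 0.40 and 0.64 that did not pass, and the list's median was 0.26. Its sixth marker, Epcam, was above background on no array. With the replicate block 3 macrophage, 3 mesothelial, 0 brown fat and 2 uroplakin calls were made, and without a filter on dim probes none. With any 1 array left out, calls are not read, since a diet then has 1 array. The median changes of these 4 lists kept their sign each time. None of the adipocyte (8), endothelial (4), muscle (6), lymphocyte (5), hepatocyte (3) and red cell (2) markers tested passed with limma, where 3, 1, 2, 1, 0 and 0 had an unadjusted p under 0.05. The 3 adipocyte markers were Lep (2.18, adjusted p = 0.0729), Adipoq (-0.32, adjusted p = 0.119) and Pnpla2 (-0.38, adjusted p = 0.104). Fewer cells of a type and less RNA per cell cannot be told apart in bulk tissue.

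Carriers of aspartate and glutamate differed among themselves. Slc25a13, known as citrin, exports aspartate in exchange for glutamate and is a step of the malate-aspartate shuttle, which passes cytosolic reducing equivalents to the mitochondrion. Its signal was -3.20 and -3.18 on LFD and -1.56 and -1.84 on HFD. Both HFD arrays lay far above both LFD arrays, and the change of 1.49 (SE 0.13, adjusted p = 0.0179) rested on 1 probe at chr6:5991482-5991541 (mm9, minus strand). Slc25a12, the isoform known from heart and brain, had 0.84 and 0.49 on LFD and 0.87 and 0.87 on HFD, a change of 0.20 (adjusted p = 0.383). A dimmer Slc25a12 probe read -3.32 and -3.60 on LFD and -3.62 and -5.06 on HFD (adjusted p = 0.289), the last of these not above background.

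Slc25a22, a glutamate/proton symporter, had 0.22 and 0.66 on LFD and -0.31 and -0.29 on HFD. The diets did not overlap, but the LFD arrays were apart and the change of -0.74 (SE 0.18) did not pass (adjusted p = 0.0713). Its relative Slc25a18 was above background on 1 array of each diet and was not tested (-4.86 and -4.13 on LFD, -4.15 and -4.86 on HFD).

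Among enzymes and transporters of the shuttle and of pyruvate and citrate handling, 11 were tested, 1 was higher and 1 was lower. The changes of 10 were below 0, and the list's median was -0.42. The number lower was 5 with normexp, 3 with median scaling and 0 with no filter on dim probes. Got1, the cytosolic aspartate aminotransferase that works on the same aspartate as Slc25a13, was higher by 0.67 (adjusted p = 0.0349), a call not made with the replicate block or without a filter on dim probes. Gpd2, the mitochondrial glycerol phosphate dehydrogenase of the alternative redox shuttle, fell by 2.61 (adjusted p = 0.0140), from 2.86 and 3.27 on LFD to 0.40 and 0.51 on HFD. Mpc1, a subunit of the pyruvate carrier, had -1.04 (adjusted p = 0.0605). Pcx was not tested because its spot was an outlier on 1 array.

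Among ATP-Mg/phosphate carriers, which set the adenine nucleotide pool of the matrix, Slc25a24 alone passed. It had 1.26 and 1.28 on LFD and 2.00 and 1.99 on HFD. The replicates of each diet nearly coincided, and the change was 0.73 (SE 0.09, adjusted p = 0.0259; probe at chr3:108971266-108971325, mm9, plus strand). A second, dim Slc25a24 probe that was not tested read -4.12 and -3.66 on LFD and -3.09 and -3.06 on HFD. It was not above background on LFD replicate 1 or HFD replicate 2, so no change is read from it. Slc25a25 had 2.09 and 2.60 on LFD and 2.55 and 2.50 on HFD, so the diets overlapped (change 0.17, adjusted p = 0.565), and its 3 probes gave 0.09 to 0.20. Slc25a23 had a change of -0.75 (adjusted p = 0.135) and was not above background on HFD replicate 2. Slc25a41, whose probe lies 11508 bases from that of Slc25a23 on chromosome 17, was dark on all arrays.

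Slc25a29 and Slc25a47, the 2 carriers that were lower, lie side by side. Their probes are 29888 bases apart on chromosome 12 and on opposite strands (chr12:110064375-110064434 and chr12:110094661-110094720, mm9). Slc25a29 had -0.54 and -0.33 on LFD and -1.53 and -1.26 on HFD. That is a change of -0.96 (SE 0.15, adjusted p = 0.0371), and a second probe gave -0.66 (adjusted p = 0.0624). Slc25a47 had -1.31 and -1.25 on LFD and -2.21 and -2.01 on HFD, a change of -0.83 (SE 0.12, adjusted p = 0.0312). Hepatocyte markers summed to 3.23 and 8.44 on LFD and to 1.71 and 4.90 on HFD, so that their diets overlapped. In both carriers each HFD array was below each LFD array by more than the replicates of a diet differed. Of the 3 other neighbouring pairs of carriers on the array (Slc25a41 and Slc25a23, Slc25a54 and Slc25a24, Slc25a43 and Slc25a5), each had 1 gene that was not tested.

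The remaining ornithine carriers, Slc25a15 and Slc25a2, were above background on no array. Among enzymes of ornithine and glutamate, 5 of 8 were tested and none passed with limma, nor had any an unadjusted p under 0.05. Odc1, which makes polyamines from ornithine, had the smallest p of the list with a change of 0.25 (adjusted p = 0.168).

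Of the other carriers with no substrate assigned, Slc25a35 had 0.15 and 0.61 on LFD and -0.52 and -0.53 on HFD. Its change of -0.90 just missed the threshold (adjusted p = 0.0540), and its second probe gave -0.73 (adjusted p = 0.0935). Slc25a45 was on the other side, at 0.11 and -0.16 on LFD and 0.43 and 0.45 on HFD (0.47, adjusted p = 0.0922). Slc25a48 was well above background on both LFD arrays (-4.15 and -4.03) and on neither HFD array, so its HFD level is only a bound. Its change is plotted and counted but not read as a result. Slc25a54 was dark throughout, Slc25a34 was above background on 1 array, and the 2 probes of Slc25a43 on 1 and 2 arrays.

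Slc25a1, the citrate carrier that supplies the cytosol with carbon for fatty acid synthesis, had the change furthest below 0 in the family. It had 3.79 and 4.56 on LFD and 2.89 and 2.84 on HFD. Both HFD arrays were below both LFD arrays, yet LFD replicate 2 was well above LFD replicate 1, and the change of -1.31 (SE 0.28) did not pass (adjusted p = 0.0597). Slc25a1 passed with normexp (adjusted p = 0.0163), median scaling (0.0447), probes above background on all 4 arrays (0.0362) and the trend and robust options (0.0485). It did not pass in the other alternatives with all 4 arrays, such as the replicate block (0.0815) and no filter on dim probes (0.178). Without LFD replicate 1 the change was -1.69, and without LFD replicate 2 it was -0.93. Acly, which splits the exported citrate, had 3.72 and 5.41 on LFD and 1.54 and 1.95 on HFD (-2.82, adjusted p = 0.0602). Its LFD replicate 2 was also the highest array.

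The carriers of dicarboxylates and oxoglutarate did not pass with limma, nor had either tested gene an unadjusted p under 0.05. Slc25a10, the dicarboxylate carrier, had 4.26 and 4.94 on LFD and 4.24 and 4.13 on HFD (-0.41, adjusted p = 0.308). Here LFD replicate 1 stood close to the HFD arrays and only LFD replicate 2 stood apart. Slc25a11, the oxoglutarate/malate carrier of the malate-aspartate shuttle, had 4.57 and 4.64 on LFD and 4.41 and 4.38 on HFD (-0.21, adjusted p = 0.196). Slc25a21 was dark on both of its probes.

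Slc25a20, which brings acylcarnitines into the matrix for oxidation, had 1.62 and 1.20 on LFD and 1.24 and 1.18 on HFD. The diets overlapped, LFD replicate 1 being the only array that stood apart, and the change was -0.20 (adjusted p = 0.455). Of the 6 genes of the carnitine system, 1 was higher: Cpt1a, the form of the rate-limiting acyltransferase known from liver, at 1.19 and 0.76 on LFD and 2.63 and 2.33 on HFD (1.50, adjusted p = 0.0290). That call was not made without a filter on dim probes. Crat, carnitine acetyltransferase, had -0.68 (adjusted p = 0.0525) and Cpt2, the inner acyltransferase, -0.36 (adjusted p = 0.0960). Cpt1b, the muscle and brown fat form, had 0.32 and -1.40 on LFD and -1.26 and -1.25 on HFD, so that LFD replicate 1 alone was high. The summed brown fat markers were highest on that array too, but their LFD replicate 2 also lay above both HFD arrays.

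Slc25a44, a carrier of branched-chain amino acids described in brown fat, had -0.75 and -0.23 on LFD and -1.27 and -1.28 on HFD. The diets did not overlap, and the change of -0.79 (SE 0.20) did not pass (adjusted p = 0.0783). Of the 6 genes that break these amino acids down in the matrix, 5 were lower and the median change was -0.74. Bcat2, the mitochondrial aminotransferase, fell by 0.91 (adjusted p = 0.0431), Bckdha, a subunit of the branched-chain ketoacid dehydrogenase, by 0.78 (adjusted p = 0.0348), Dbt, its transacylase, by 0.76 (adjusted p = 0.0298) and Dld, a subunit it shares with other dehydrogenases, by 0.56 (adjusted p = 0.0416). With the replicate block, or without a filter on dim probes, none of the 6 passed.

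None of the 6 cofactor carriers described here passed with limma (1 at an unadjusted p under 0.05), and all had changes below 0. The sign turned for Slc25a26 and Slc25a42 with normexp, and for these and Slc25a51 with 1 array left out. The carriers linked to coenzyme A import had changes of -0.62 for Slc25a16 (-0.36 and -0.32 on LFD, -0.82 and -1.10 on HFD, adjusted p = 0.0593) and -0.19 for Slc25a42 (-2.82 and -2.94 on LFD, -2.69 and -3.45 on HFD, adjusted p = 0.657). The diets were apart for the first and overlapped for the second. Slc25a32, the folate carrier, had -0.75 and 0.51 on LFD and -1.05 and -1.10 on HFD, the widest gap between LFD arrays among the tested carriers, and a change of -0.95 (SE 0.44, adjusted p = 0.212). Slc25a17 for peroxisomal cofactors (-0.20, with 3 probes from -0.23 to -0.20), Slc25a51 for NAD (-0.13) and Slc25a26 for S-adenosylmethionine (-0.02) did not pass either. A dimmer Slc25a51 probe gave -0.44 (adjusted p = 0.0655).

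Enzymes that make or use these cofactors went both ways: of 11 tested, 1 was higher and 2 were lower. Mthfd2, a mitochondrial folate enzyme, was higher by 1.96 (adjusted p = 0.0137), with -3.54 and -3.65 on LFD and -1.57 and -1.69 on HFD. Pank1, a pantothenate kinase that starts coenzyme A synthesis, fell by 2.56 (adjusted p = 0.0221), from -1.26 and -1.98 on LFD to -4.06 and -4.30 on HFD. It was well above background on 1 of the 2 HFD arrays, so the size of its fall is uncertain. Coasy, which finishes it, fell by 0.58 (adjusted p = 0.0436). Nadk2, the mitochondrial NAD kinase, had -0.62 (adjusted p = 0.0638).

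None of the carriers of ATP supply passed with limma, and Slc25a5 alone had an unadjusted p under 0.05. Slc25a4 and Slc25a5, the main ADP/ATP exchangers, had changes of -0.18 (adjusted p = 0.240) and -0.35 (adjusted p = 0.0918). Slc25a4 read 5.95 and 6.02 on LFD and 5.79 and 5.82 on HFD, and its second probe gave -0.17. Slc25a5 read 6.29 and 6.31 on LFD and 6.00 and 5.90 on HFD, and neither gene's diets overlapped. Slc25a31, the exchanger known from germ cells, was dark. The phosphate carrier Slc25a3 had -0.06 (95% interval -0.39 to 0.26). Of the pyrimidine nucleotide carriers Slc25a33 had 1.37 and 1.52 on LFD and 1.45 and 1.27 on HFD (-0.09). Slc25a36 had -1.34 and -1.09 on LFD and -1.56 and -1.46 on HFD (-0.30, adjusted p = 0.192), but its second probe gave 0.01.

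None of the 5 outer membrane channels and nucleotide partners tested passed with limma or had an unadjusted p under 0.05, and their median was -0.14. Ppif, a regulator of the permeability transition, had -0.29 (adjusted p = 0.193) and Vdac1, a channel for metabolites, had -0.17 (adjusted p = 0.262). Slc25a46, a member that sits in the outer membrane and acts in its fission, had -0.07 and further tested probes at -0.02 and -0.15.

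Carriers for iron, glutathione and glycine did not pass with limma, and none had an unadjusted p under 0.05. Of the mitoferrins, which bring iron into the matrix, Slc25a28 had 2.33 and 2.39 on LFD and 2.30 and 2.33 on HFD (-0.05). Slc25a37 had 1.34 and 1.40 on LFD and 1.54 and 1.49 on HFD (0.15, adjusted p = 0.322), and a dimmer probe gave 0.59 (adjusted p = 0.0879). Of the glutathione carriers Slc25a39 had 4.32 and 4.30 on LFD and 4.08 and 4.20 on HFD (-0.17). Slc25a40 had -1.84 and -1.69 on LFD and -1.56 and -1.54 on HFD (0.21), on the 1 of its 4 probes that was above background. The glycine carrier Slc25a38, which feeds heme synthesis, had 0.03 (95% interval -0.30 to 0.37). Of 8 iron-sulphur and heme genes 1 was higher, Alas1, the first enzyme of heme synthesis (0.52, adjusted p = 0.0436), and none was lower by limma, with 4 in all at an unadjusted p under 0.05. The call of Alas1 was not made with median scaling, on the mean of its probes, with the replicate block or without a filter on dim probes.

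Of the 3 uncoupling-protein-like carriers none passed with limma by its brightest probe, and 2 had an unadjusted p under 0.05. Slc25a30 had -2.08 and -2.33 on LFD and -1.73 and -1.67 on HFD (0.50, adjusted p = 0.0782). A dimmer Slc25a30 probe read -2.64 and -2.64 on LFD and -2.06 and -1.92 on HFD and passed on its own (0.65, adjusted p = 0.0370). Counted over probes, 5.43% of all tested probes were higher and 5.27% lower. Slc25a14 had 0.40 and 0.58 on LFD and 0.67 and 0.68 on HFD (0.18, adjusted p = 0.299). Slc25a27 had -0.39 (adjusted p = 0.0714), with dimmer probes at -0.78 and 0.12, neither of them above background on HFD replicate 2.

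Among 5 carriers of the same protein family that bear other symbols, 1 was higher and 2 were lower. Ucp2, an uncoupling protein known from immune cells as well as fat, had -1.15 and -1.22 on LFD and 0.65 and 0.49 on HFD, a rise of 1.76 (adjusted p = 0.0137). Ucp1, the heat-producing carrier of brown fat, had 5.10 and 2.82 on LFD and -1.08 and -1.02 on HFD. It fell by 5.01 (SE 0.79, adjusted p = 0.0371), and the LFD arrays were far apart. Mtch2, an outer membrane relative, fell by 0.62 (adjusted p = 0.0341), a call not made on the mean of its probes (adjusted p = 0.125). Ucp3 had -1.40 (adjusted p = 0.0935).

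The difference in log2 signal between the probes of 2 related carriers was taken within each array. Its size has no meaning across probes, and only its shift between diets is read. With 2 arrays a diet an exact permutation test cannot go below p = 0.333, so these values are a description. The Slc25a12 minus Slc25a13 difference was 4.04 and 3.67 on LFD and 2.43 and 2.71 on HFD, a shift of -1.29. The Slc25a24 minus Slc25a25 difference shifted by 0.55, Slc25a16 minus Slc25a42 by -0.43, Slc25a39 minus Slc25a40 by -0.38 and Slc25a14 minus Slc25a30 by -0.32. Shifts were 0.21 for Slc25a33 minus Slc25a36, -0.20 for Slc25a10 minus Slc25a11, -0.19 for Slc25a28 minus Slc25a37 and 0.17 for Slc25a4 minus Slc25a5. The diets overlapped only for Slc25a10 with Slc25a11 among these 9 pairs. Lack of overlap is common with so few arrays: of all single genes 36.2% had both HFD arrays above both LFD arrays and 32.7% below. The share among other gene pairs was not taken. Some gaps were small, as for Slc25a33 minus Slc25a36 (2.71 and 2.61 on LFD, 3.01 and 2.74 on HFD). In the tenth pair, Slc25a18 with Slc25a22, the first gene was not tested.

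**Figure D3:**
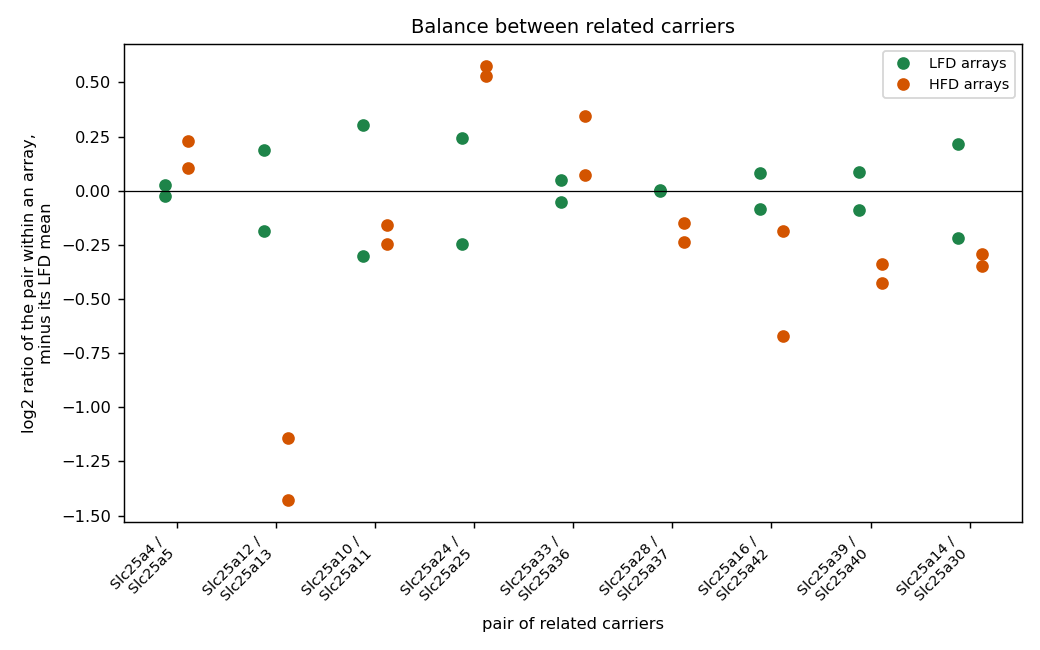
Log2 ratio between 2 related carriers within an array, minus its LFD mean, for the 9 pairs with both genes tested; each point is an array. The Slc25a12/Slc25a13 pair shifted by -1.29, far beyond its spread on LFD, and the Slc25a10/Slc25a11 points overlap.

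Of 14 genes for import of carrier precursors through the outer membrane and the small Tim chaperones, none passed with limma (2 at an unadjusted p under 0.05) and the median was -0.01. Timm10b had 0.40 (adjusted p = 0.0886) and Timm22, the channel of the carrier insertion complex, 0.29 (adjusted p = 0.127). Of 8 genes of mitochondrial biogenesis 1 was lower: Ppargc1a, a coactivator of mitochondrial genes, fell by 1.05 (adjusted p = 0.0173), from -0.40 and -0.39 on LFD to -1.46 and -1.43 on HFD. Hspa9, the matrix chaperone that pulls precursors in, had -0.49 (adjusted p = 0.0518) and Ppargc1b -1.24 (adjusted p = 0.0675).

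**Figure D4:**
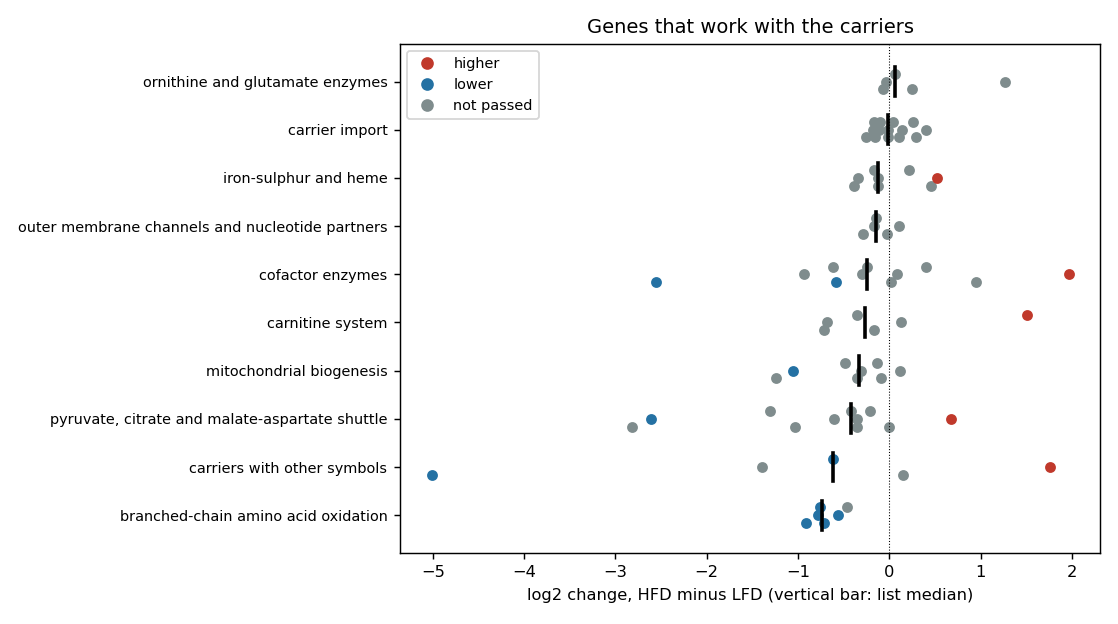
Log2 change (HFD minus LFD) of each tested gene in the 10 lists of genes that work with the carriers, with called genes in colour and each list's median as a vertical bar. Import genes cluster around 0 (median -0.01), branched-chain amino acid genes lie below 0 (median -0.74), and Ucp1 (-5.01) is furthest from 0.

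The 4 calls in the family rest on 2 arrays per diet. Leaving out 1 array leaves a diet with 1 array, and far fewer genes of any kind were then called. Those fits are therefore read only for the sign and size of a change. The 4 called carriers kept their sign each time. Without a filter on dim probes none of the 4 passed (12 of 46 carriers at an unadjusted p under 0.05), and no gene of the 27613 then tested did. In the 10 lists of genes that work with the carriers, no call was made without the filter. With the replicate block, calls of Ucp1, Mtch2, Coasy and Ppargc1a were not made.

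**Figure D5:**
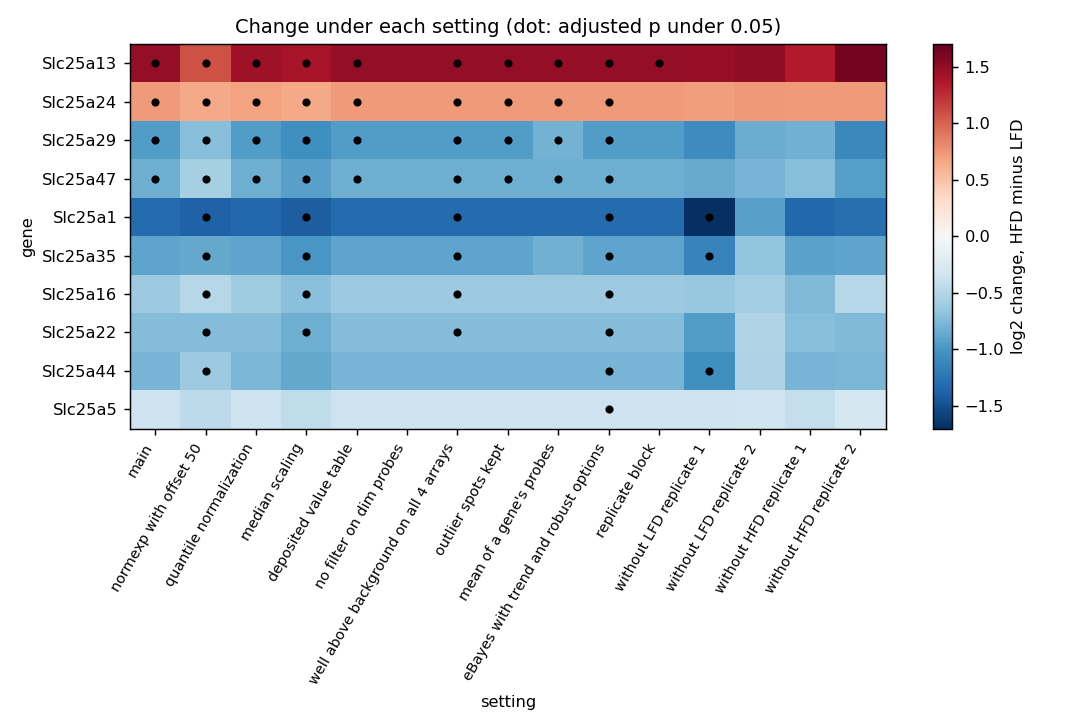
Log2 change (colour, HFD minus LFD) of 10 carriers under the setting used here and 14 alternatives, with a dot where the adjusted p was under 0.05. Slc25a13, Slc25a24, Slc25a29 and Slc25a47 keep their colour in every column. Their dots are absent in the column without a filter, as are those of Slc25a24, Slc25a29 and Slc25a47 with the replicate block. Columns that leave out an array are read for colour only.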

How the data were processed

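RNA of 4 samples (500 ng each) was labelled with Cy3 and hybridised to Agilent arrays. The authors extracted spot signals with Agilent Feature Extraction (version 11.5.1.1 per the submitters' processing notes, 11.0.1.1 per the file headers), and the scanner files hold background-corrected intensities. The deposited value table holds a linear ratio, which equals each array's scanner intensity divided by a constant close to its 75th percentile. Median values of that table were 0.117, 0.127, 0.130 and 0.131.

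Here, log2 intensity minus each array's 75th percentile was used. Control spots and outlier spots (60 to 115 an array) were left out. A probe was tested if 1 diet or both had it well above background on each replicate, with limma 3.58.1 (lmFit, eBayes) in R 4.3.3, with 2 residual and 2.24 prior degrees of freedom. In data simulated for this comparison (17751 genes, 200 changed), the same steps recovered 26% of 2-fold, 92% of 4-fold and 100% of 8-fold changes, with 16 false calls. In the real data 11.3% of genes were called. Changes were thus rarer in the simulation, and its rates need not hold for the real data. Symbols of other genes were updated through RefSeq accessions (27668 probes matched, 1843 changed), while carriers keep the array's names. Members, substrate groups and gene lists were chosen with earlier results of these data known. All carriers are counted, and values on every array are given for called carriers and for 10 related pairs. Of each partner list up to 4 genes of smallest p are named, and Me1 was named outside this rule after its values were seen. Array values of Slc25a1, Slc25a20, Slc25a32, Slc25a35, Slc25a44 and Slc25a45, and of partner genes, were chosen for printing after they were seen. Alternatives were another background correction, scaling, filter, probe rule, variance model, a replicate block and leaving out each array. All arrays shared 1 slide, so slide was not used as a block. Of the tested carriers 1 is counted but not reported by name here, and a few partner genes are not reported and were left out of their lists.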

Additional observations from a re-analysis of the deposited data

How the results depend on the processing

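The count of higher carriers (2) was 2 or 3 in every alternative with all 4 arrays except 0 without a filter and 1 with the replicate block. The count of lower carriers (2) was 7 with normexp, 6 with median scaling, 7 with probes above background on all 4 arrays, 8 with the trend and robust options, 0 without a filter and 0 with the replicate block. Of all 17751 tested genes 995 were lower here, 1238 with normexp, 1333 with median scaling, 1807 with the trend and robust options and 208 with the replicate block. Probes above background on all 4 arrays gave 1309 lower of 14806 genes, and no filter gave 0. The share of lower carriers was near that of all genes here. It was above it with normexp, median scaling, the stricter filter and the trend and robust options. Counts of calls with 1 array left out are not read, since a diet then has 1 array. The median change was -0.19 here, where that of all genes was 0.02. With median scaling the 2 medians were -0.28 and -0.07, and without a filter (46 carriers) they were -0.11 and 0.20. With 1 array left out the carriers' median was -0.21 to -0.17, and that of all genes -0.0026 to 0.047. With the replicate number as a block, Slc25a13 alone passed (adjusted p = 0.0491). Deviations of same-numbered arrays from their diet means correlated at r = -0.0043. With 2 arrays a diet the replicates deviate by equal and opposite amounts, so r cannot settle whether the arrays were paired. Of the 37 carriers, 26 kept 1 sign over all 14 alternatives and 11 changed it, none of them called. With normexp the sign turned for Slc25a26 (0.018), Slc25a38 (-0.038), Slc25a42 (0.015) and Slc25a48 (0.052), with median scaling for Slc25a38 (-0.057) and the partner Glud1 (-0.027), and on the probe mean for Slc25a12 (-0.34). With 1 array left out it turned within these ranges of the change: Slc25a20 (-0.41 to 0.014), Slc25a25 (-0.083 to 0.43), Slc25a26 (-0.087 to 0.041), Slc25a3 (-0.18 to 0.050), Slc25a33 (-0.18 to 0.0041), Slc25a38 (-0.084 to 0.15), Slc25a42 (-0.57 to 0.19), Slc25a46 (-0.15 to 0.014), Slc25a51 (-0.27 to 0.0099), and the partners Cpt1b (-1.58 to 0.14) and Glud1 (-0.015 to 0.14). The cause was not tested. A slide block was not run, since 1 slide was used. Signal over background was too low to test 9 of the 46 carriers.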

Other observations

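The 2 LFD arrays differed in opposite directions for different groups of genes. LFD replicate 2 was the higher for Slc25a1 (3.79 and 4.56), Slc25a10 (4.26 and 4.94), Acly (3.72 and 5.41), Me1, which makes NADPH from malate (4.76 and 5.90), and Mpc1, a subunit of the pyruvate carrier (5.72 and 6.31). LFD replicate 1 was the higher for Slc25a20 (1.62 and 1.20), Ucp1 (5.10 and 2.82), Cidea, a lipid droplet protein of brown fat (5.87 and 4.90), and Elovl3, a fatty acid elongase of brown fat (0.08 and -2.39). These genes were picked after their values were seen.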
